A study of Mus musculus with 8 samples.

Results

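The genes described here are 10 regulators that limit inflammatory responses in macrophages, by destroying cytokine mRNAs or by editing ubiquitin chains on signaling proteins. They were Zfp36, Zfp36l1, Zfp36l2, Zc3h12a, Zc3h12c, Rc3h1, Tnfaip3, Tnip1, Tnip3 and Cyld, out of 24421 genes in the tables. They were chosen by name for what they do, but with earlier results of these data known, so their shares beside all genes are a description. All 10 were found, and all 10 passed the filter on low values. RNA-seq was performed in RAW macrophages, a line of mouse cells with macrophage properties, in 4 groups of 2 libraries: untreated (ctl), MCD (methyl-β-cyclodextrin, which takes cholesterol out of membranes) at 5 mM for 1 h, lipopolysaccharide (LPS, a bacterial ligand of TLR4) at 100 ng/ml for 3 h, and both (MCD-LPS). According to the methods, the cells were washed after MCD and then kept with LPS for 3 h more, so MCD was absent during LPS, the MCD libraries were read as MCD ended, and the MCD-LPS libraries were read 3 h later. The comparisons asked how cholesterol removal changed these regulators in resting macrophages, and whether it changed them once LPS had been given.

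Zfp36 encodes tristetraprolin (TTP), a CCCH zinc finger protein that binds AU-rich elements of mRNAs such as that of Tnf and brings the deadenylase complex to them. Zfp36l1 and Zfp36l2 encode its paralogues, Zc3h12a and Zc3h12c encode the endoribonuclease Regnase-1 and its relative Regnase-3, and Rc3h1 encodes Roquin-1, which recognizes stem-loops in mRNAs. Tnfaip3 encodes A20, a ubiquitin-editing enzyme that restrains NF-κB signaling and is itself an NF-κB target, Tnip1 and Tnip3 encode the ubiquitin-binding ABIN proteins that bind A20, and Cyld encodes a deubiquitinase of K63-linked and linear chains.

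Each library held 38645458 to 48436956 reads in genes. Which of the untreated and LPS columns are the ctl and LPS samples was inferred from column prefixes shared with the MCD and MCD-LPS columns. The prefix of ctl and MCD differs from that of LPS and MCD-LPS, and the labels do not state what it stands for. The values are gene counts that the authors scaled for depth, called normalized counts here, separately for the table of ctl and MCD and the table of LPS and MCD-LPS. A count of 0 would leave room for 0.0619 to 0.0776 CPM (counts scaled to the same sum over genes in each library), far under any level of the 10 genes. Of 8 macrophage markers 7 reached 1 CPM in the libraries, Mertk being the exception, and of the T cell, B cell, neutrophil, fibroblast and epithelial markers none did, with summed levels of at most 0.245 CPM per list and library. In bulk RNA, fewer cells and less RNA per cell cannot be told apart. The LPS replicates were less alike than those of the other groups, with an SD of the log2 ratio between replicates of 0.246 over 11545 genes, against 0.179 to 0.189 elsewhere, and this touches Zfp36, Tnfaip3 and Zc3h12a below. Whether the replicates of a group were separate cultures is not stated in the labels. The p-values therefore cover the spread among these 8 libraries alone, which may be technical.

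The promoter sequences of Zfp36, Tnfaip3 and Cyld are shown first. Zfp36 and Tnfaip3 were each other's nearest gene by profile over the 8 libraries. Their start regions share an SP1 box but differ in the CArG, NF-κB and AP-1 matches. Whether any match bears on the mRNA levels was not tested. Sequences are RefSeq's on GRCm38.p6 and run from 250 bases before to 50 bases after the transcription start. The first is Zfp36 (chr7:28379179-28379478, minus strand) and the second Tnfaip3 (chr10:19015361-19015660, minus strand). The third is Cyld (chr8:88696778-88697077, plus strand), which holds a κB match. Capitals mark matches to the CArG box in Zfp36 and to the general NF-κB consensus in Tnfaip3 and Cyld.
Zfp36: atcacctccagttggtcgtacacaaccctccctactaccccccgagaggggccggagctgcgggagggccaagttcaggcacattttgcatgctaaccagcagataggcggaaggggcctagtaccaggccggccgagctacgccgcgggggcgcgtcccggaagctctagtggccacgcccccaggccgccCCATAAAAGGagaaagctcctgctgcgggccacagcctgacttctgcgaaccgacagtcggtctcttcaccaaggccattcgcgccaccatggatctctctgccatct
Tnfaip3: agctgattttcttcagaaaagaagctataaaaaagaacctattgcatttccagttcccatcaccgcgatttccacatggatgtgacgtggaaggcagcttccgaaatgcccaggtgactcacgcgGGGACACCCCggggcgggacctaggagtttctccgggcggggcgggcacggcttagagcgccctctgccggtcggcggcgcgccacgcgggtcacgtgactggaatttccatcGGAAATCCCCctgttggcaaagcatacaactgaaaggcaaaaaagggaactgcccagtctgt
Cyld: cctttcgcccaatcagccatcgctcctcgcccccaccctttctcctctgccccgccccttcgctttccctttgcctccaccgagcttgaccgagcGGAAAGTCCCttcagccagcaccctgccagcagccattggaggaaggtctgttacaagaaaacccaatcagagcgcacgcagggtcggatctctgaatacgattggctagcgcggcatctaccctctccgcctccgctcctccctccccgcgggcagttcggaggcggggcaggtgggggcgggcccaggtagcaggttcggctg

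The Zfp36 match to the CArG box, the motif of serum response factor, lay at bases -58 to -49 from the start and was the only one among 11 promoters of 9 of the genes (1.63% of all 32851 promoters held one). Tnfaip3 held the general NF-κB consensus at -125 to -116 and, read on the opposite strand, at -12 to -3. A further promoter listed for Tnfaip3 (chr10:19011914-19012213, minus strand) held none of the motifs searched. Cyld held it at -155 to -146 on the opposite strand, as did 4.51% of all promoters. In all, 4 of the 11 promoters held it, those of Tnfaip3, Tnip1, Tnip3 and Cyld, but this looser pattern was added after the sequences had been seen. A stricter κB pattern, GGGA and TTCC with any pair of bases between them, was found only in Cyld (1.47% of all promoters). An AP-1 motif, TGANTCA, was present in the promoters of Rc3h1, Tnfaip3 and Zfp36l1 (7.81% of all), a CRE, TGACGTCA, in none (1.79%), and an SP1 box, GGGCGG, in 7 (35.7%). Both strands were searched, the strict κB pattern overlaps the general one, and the CArG match of Zfp36 shares a base with an SP1 box. A match describes letters and not binding.

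MCD at rest raised 6 of the 10 genes and lowered none by limma, at a Benjamini-Hochberg adjusted p under 0.05 (at an unadjusted p under 0.05, 10 were higher and 0 lower; edgeR called 6 and 0, DESeq2 8 and 0). Over all 11777 genes tested, 1.08% were called higher and 0.034% lower by limma. At an unadjusted p under 0.05, 10.7% of all genes passed in either direction. Over all genes edgeR called 123 higher and 6 lower, and DESeq2 199 and 15. The median log2 fold change of the 10 genes was 0.49, against -0.0018 for all genes. In each of the 10 genes both MCD libraries lay above both ctl libraries, as they did for 24% of all genes. Zfp36 and Tnfaip3 moved most, followed by Zc3h12a.

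Zfp36 (chr7:28376784-28380253, minus strand; positions of genes are from GENCODE M21 on mm10) stood at 3716 and 3355 normalized counts in the ctl libraries and at 24145 and 26954 in the MCD libraries. The groups were far apart and their replicates close. The increase was 7.22-fold (log2 fold change 2.85, SE 0.30, limma adjusted p = 0.00195). Its paralogue Zfp36l1 (chr12:80107754-80113013, minus strand) went from 3088 and 2838 to 4449 and 4416, a 1.497-fold increase (log2 0.58, SE 0.06, limma adjusted p = 0.00199). A lincRNA on the opposite strand, Gm26669, covers 55.9% of the exonic length of Zfp36l1, and no source used here gives the use of strand in counting, so reads of the pair cannot be told apart. Such overlap covers at most 3.60% of any other of the 10 genes. Zfp36l2 (chr17:84183931-84187947, minus strand), the most abundant of the family at rest, had 10593 and 10476 normalized counts in ctl and 12171 and 12739 in MCD, and did not pass (log2 0.24, SE 0.05, limma adjusted p = 0.0664).

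The Regnase genes both rose. Zc3h12a (chr4:125118423-125127840, minus strand) stood at 1054 in both ctl libraries and at 2902 and 3161 in MCD, an increase of 2.87-fold with the smallest replicate gap of any of these genes in ctl (log2 1.52, SE 0.16, limma adjusted p = 0.00195). Zc3h12c (chr9:52111344-52168572, minus strand) rose 1.57-fold, from 2167 and 2069 to 3169.6 and 3488 (log2 0.65, SE 0.10, limma adjusted p = 0.0147). The call for Zc3h12c was lost when any 1 ctl or MCD library was left out (adjusted p 0.0596 to 0.186), with log2 values of 0.58 to 0.72. Rc3h1 (chr1:160906418-160974978, plus strand) had 5101 and 4789 in ctl and 5816 and 5999 in MCD, and did not pass (log2 0.26, SE 0.06, limma adjusted p = 0.119).

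In the A20 module, Tnfaip3 and Tnip3 rose, and Tnip1 and Cyld did not pass. Tnfaip3 (chr10:19000910-19015657, minus strand) stood at 1217 and 1069 in ctl and at 6491 and 7236 in MCD. Every MCD value was several times every ctl value, and the increase was 6.005-fold (log2 2.59, SE 0.33, limma adjusted p = 0.00517). Tnip3 (chr6:65525313-65634040, plus strand) rose 1.31-fold, from 3760.1 and 3971 to 4695 and 5458 (log2 0.39, SE 0.08, limma adjusted p = 0.0456), close to the threshold: it did not pass without ctl replicate 1, ctl replicate 2, MCD replicate 2 or either MCD-LPS library (adjusted p 0.0717 to 0.395), or with no filter on low values (0.103). Tnip1 (chr11:54910785-54962917, minus strand), with 3947 and 4177 in ctl and 4488 and 4762 in MCD, did not pass (log2 0.19, SE 0.06, limma adjusted p = 0.251). Cyld (chr8:88697028-88751945, plus strand) did not pass either, with 3381 and 3350.1 in ctl and 3729 and 3609.8 in MCD, and its 95% interval ran from 0.03 to 0.22 on the log2 scale.

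All 8 libraries shared 1 estimate of the spread, so the uneven LPS replicates entered the errors at rest as well. For Tnfaip3 the call was lost without ctl replicate 1 (adjusted p = 0.0901), ctl replicate 2 (0.104) or MCD replicate 2 (0.0621), and for Zfp36 without ctl replicate 2 (0.0518), while the log2 values stayed within 2.49 to 2.68 and 2.77 to 2.93. When only the ctl and MCD libraries were fitted, limma gave adjusted p values of 2.48e-16 for Zfp36 and 8.72e-15 for Tnfaip3. With 2 libraries a group, these values lean largely on the spread that limma takes from all genes. They say little about the replicates of these 2 genes. Zfp36l1 and Zc3h12a passed in each of the 15 alternative settings run.

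**Figure D1:**
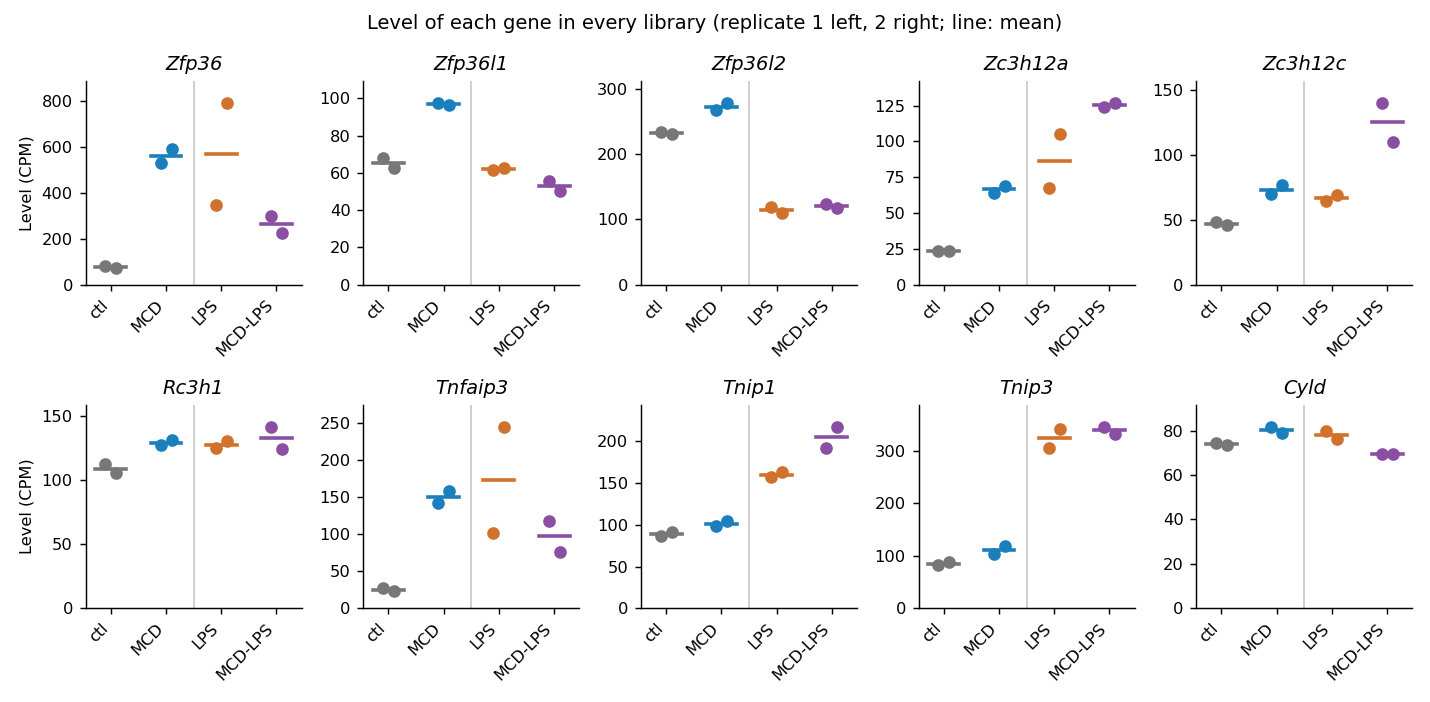
Level of each of the 10 genes in CPM (y axis, from 0) in the 4 groups (x axis); points are libraries, replicate 1 left and replicate 2 right, and lines are means of 2. In Zfp36 and Tnfaip3 the LPS libraries lie far apart (347 and 792 CPM for Zfp36), and the gray line separates the 2 tables, which were normalized separately by the authors.

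With LPS given after MCD, the 10 genes divided. By limma 3 were higher in MCD-LPS than in LPS, namely Zc3h12a, Zc3h12c and Tnip1, 3 were lower, namely Zfp36, Zfp36l1 and Cyld, and 4 did not pass. Over all 11976 genes tested, 12.9% were higher and 13% lower, 25.9% in all. Of the TTP genes, Zfp36 and Zfp36l1 were thus lower while Zfp36l2 did not pass, and both Regnase genes were higher. The same 6 genes had groups that did not overlap, 3 in each direction. That is near the shares over all genes, 30.3% upward and 30.4% downward.

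Zfp36 had 13938 and 31941 normalized counts in the LPS libraries and 12271 and 9129 in MCD-LPS. LPS replicate 2 was 2.29 times replicate 1, and replicate 1 lay close above the MCD-LPS values. The decrease was 1.99-fold (log2 -0.995, SE 0.30, limma adjusted p = 0.0339). Its size rested on the LPS libraries: the log2 value was -1.59 without LPS replicate 1 (adjusted p = 9.43e-05) and -0.40 without LPS replicate 2 (adjusted p = 0.0486), and the call was lost when any 1 library of another group was left out (adjusted p 0.0504 to 0.190) and when only the LPS and MCD-LPS libraries were fitted (0.0879) or no filter was used (0.0821). Zfp36l1 was 1.16-fold lower, with 2480.5 and 2530.2 in LPS and 2278 and 2036 in MCD-LPS (log2 -0.22, SE 0.06, limma adjusted p = 0.0269). That call was lost without LPS replicate 2 (0.0555) or MCD-LPS replicate 2 (log2 -0.14, adjusted p = 0.175), and with only the LPS and MCD-LPS libraries (0.0754). Zfp36l2 had 4789 and 4410.4 in LPS and 5072 and 4756 in MCD-LPS, overlapping groups (log2 0.10, SE 0.05, limma adjusted p = 0.201).

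Zc3h12a had 2697 and 4249.7 in LPS and 5103 and 5152 in MCD-LPS. The MCD-LPS libraries were alike and above both LPS libraries, which differed 1.58-fold. The gene was 1.51-fold higher (log2 0.60, SE 0.16, limma adjusted p = 0.0206), and the log2 value was 0.27 without LPS replicate 1 and 0.93 without LPS replicate 2, both past the threshold, whereas the call was lost without MCD-LPS replicate 1 (adjusted p = 0.0836) or 2 (0.0920), with no filter on low values (0.0534) and with only the LPS and MCD-LPS libraries (0.0624). Zc3h12c was also higher, going from 2576 and 2793 to 5736 and 4454, which is 1.88-fold (log2 0.91, SE 0.10, limma adjusted p = 0.000412), and passed in all 15 alternative settings. Rc3h1, with 5034 and 5262 against 5825 and 5051, did not pass (log2 0.08, SE 0.06, limma adjusted p = 0.435).

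Tnfaip3 had 4069 and 9906 in LPS and 4841 and 3092 in MCD-LPS. The groups overlapped and LPS replicate 2 was 2.43 times replicate 1, while MCD-LPS replicate 1 was 1.57 times replicate 2. The difference did not pass (log2 -0.71, 95% interval -1.46 to 0.03, limma adjusted p = 0.149). Its log2 value was -1.36 without LPS replicate 1 and -0.07 without LPS replicate 2. It was -1.04 without MCD-LPS replicate 1 and -0.39 without MCD-LPS replicate 2. Tnip1 was 1.30-fold higher, with 6307 and 6579 in LPS and 7894 and 8841 in MCD-LPS (log2 0.38, SE 0.06, limma adjusted p = 0.00198), and passed in all 15 alternative settings. Tnip3 had 12265 and 13776 in LPS and 14184 and 13421 in MCD-LPS, overlapping groups that did not differ past the threshold (log2 0.09, SE 0.08, limma adjusted p = 0.449). Cyld was 1.11-fold lower, from 3207 and 3081 to 2851 and 2824 (log2 -0.15, SE 0.04, limma adjusted p = 0.0296), and this small change was lost when any 1 library other than LPS replicate 2 was left out (adjusted p 0.0509 to 0.118) and by DESeq2 (0.0726).

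**Figure D2:**
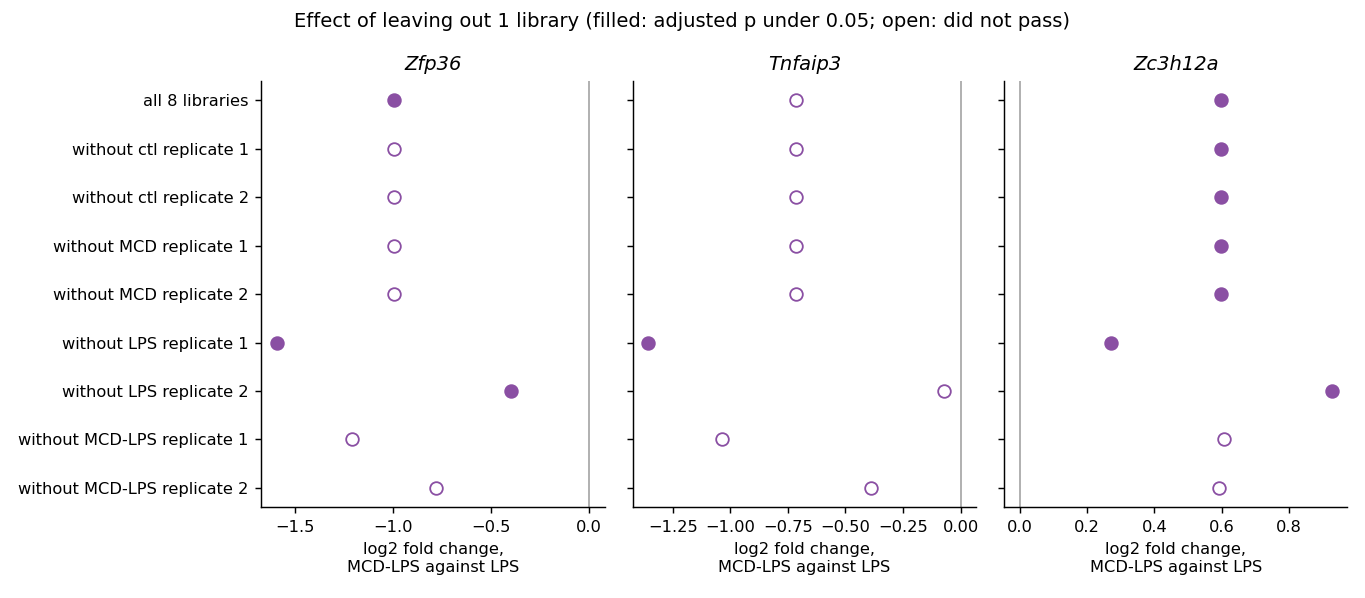
The log2 fold change of Zfp36, Tnfaip3 and Zc3h12a between MCD-LPS and LPS (x axis) with all 8 libraries and with 1 library left out (y axis); filled points passed an adjusted p of 0.05. Without LPS replicate 1 and without LPS replicate 2 the values were -1.59 and -0.40 for Zfp36, -1.36 and -0.07 for Tnfaip3, and 0.27 and 0.93 for Zc3h12a.

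The spread of the LPS libraries was uneven across the 10 genes. Zfp36, Tnfaip3 and Zc3h12a differed at least 1.5-fold between the LPS replicates, and the other 7 did not. Over all genes with LPS values, 11976 in number, 5.15% did so, and 4.27% were at least 1.5-fold higher in replicate 2. What set these libraries apart was not tested.

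The MCD effect itself differed between rest and LPS in 5 of the 10 genes, all toward a lower value under LPS and none toward a higher one (6 and 0 at an unadjusted p under 0.05, 5 and 0 by edgeR, 6 and 0 by DESeq2). Over all 11545 genes 9.99% differed toward a lower value and 7.12% the other way, 17.1% in all. At an unadjusted p under 0.05, 32.6% of all genes differed in either direction. No group was read 3 h after MCD without LPS. LPS, the time since MCD and the column prefix therefore changed together and cannot be told apart. For Zfp36 the difference of log2 effects was -3.85 (SE 0.42, limma adjusted p = 0.000617), for Tnfaip3 -3.30 (SE 0.47, limma adjusted p = 0.00228) and for Zfp36l1 -0.80 (SE 0.09, limma adjusted p = 0.000617). These 3 passed in all 14 alternative settings, including without either LPS library. Zc3h12a rose in both comparisons but less under LPS, with a difference of -0.92 (SE 0.22, limma adjusted p = 0.0214). That call was lost without any 1 ctl, MCD or MCD-LPS library (adjusted p 0.0546 to 0.0796). Cyld differed by -0.27 (SE 0.06, limma adjusted p = 0.0155), and not without ctl replicate 1 (0.0520), ctl replicate 2 (0.0633) or MCD replicate 1 (0.0827).

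The other 5 genes did not pass this test. The 95% interval of the difference was -0.06 to 0.59 for Zc3h12c, -0.0013 to 0.38 for Tnip1, -0.54 to -0.06 for Tnip3 (adjusted p = 0.0808), -0.39 to 0.02 for Rc3h1 and -0.31 to 0.02 for Zfp36l2. For Tnip1, which passed under LPS and not at rest, a difference between the 2 effects was therefore not shown (adjusted p = 0.156).

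**Figure D3:**
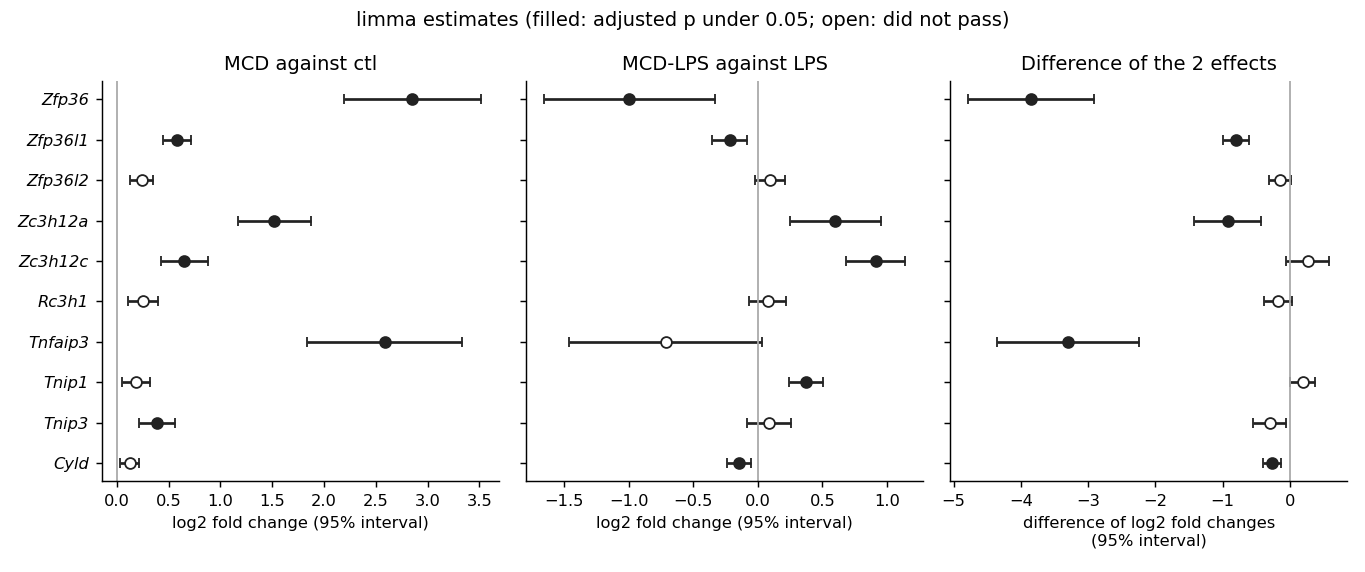
Estimates by limma for the 10 genes: log2 fold change of MCD against ctl, then of MCD-LPS against LPS, then the difference between both (x axes, each on its own scale), with 95% intervals; filled points passed an adjusted p of 0.05. Zfp36 and Tnfaip3 lie at 2.85 and 2.59 in the first panel, at -0.995 and -0.71 in the second and at -3.85 and -3.30 in the third.

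To set all 4 groups side by side, levels were expressed as CPM of the reads recovered from each library. The ctl and LPS libraries stand in separate tables, so no test was made between them. Their column prefixes differ as well, so LPS and whatever the prefix marks cannot be told apart in what follows. Over all 11545 genes kept in both tables, LPS lay above ctl without overlap in 38.4% and below it in 47.5%. Among the 10 genes, 8 lay above without overlap, Zfp36l2 lay below, and Zfp36l1 overlapped. The ratio of mean CPM, LPS over ctl, was 7.32 for Zfp36, 6.89 for Tnfaip3, 3.801 for Tnip3, 3.72 for Zc3h12a, 1.79 for Tnip1, 1.43 for Zc3h12c, 1.17 for Rc3h1 and 1.05 for Cyld.

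Zfp36 was lowest in ctl (77.9 ± 5.75 CPM, SD, n = 2), followed by MCD-LPS (262 ± 52.5), MCD (560 ± 42.5) and LPS (569.6 ± 315), and the LPS values of 347 and 792 CPM enclosed both MCD values, so these neighbors do not differ beyond their spread. Tnfaip3 had the same order, at 25.2 ± 2.36, 97.1 ± 29.6, 150.4 ± 11.3 and 173 ± 102 CPM, with the LPS values enclosing those of MCD and overlapping those of MCD-LPS. For both mRNAs the levels after 1 h of MCD alone lay between those of the 2 LPS libraries.

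The Regnase genes were instead highest after both treatments. Zc3h12a went from 23.2 ± 0.033 CPM in ctl to 66.4 ± 3.89 in MCD, 86.3 ± 27.0 in LPS and 125.7 ± 1.81 in MCD-LPS, where MCD (63.7 and 69.2) and LPS (67.2 and 105) overlapped. Zc3h12c was at 46.6 ± 1.61 in ctl, 66.7 ± 3.63 in LPS, 72.9 ± 4.80 in MCD and 125 ± 21.3 in MCD-LPS, and the LPS libraries (64.1 and 69.3) lay just below the MCD libraries (69.5 and 76.3), a gap that closed into an overlap with TMM scaling. In MCD-LPS the mean CPM was 5.42 times ctl for Zc3h12a and 2.68 times ctl for Zc3h12c.

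The ABIN genes were highest in the groups given LPS. Tnip3 was at 85.1 ± 3.14 CPM in ctl and 111 ± 11.6 in MCD, but at 323.5 ± 25.6 in LPS and 338 ± 10.7 in MCD-LPS, the last pair overlapping. Tnip1 was at 89.4 ± 3.43, 101 ± 4.06, 160.1 ± 4.32 and 205 ± 18.0 CPM in that order. Zfp36l2 ran the other way, at 232 ± 2.24 in ctl and 273 ± 8.30 in MCD against 114 ± 6.97 in LPS and 120.4 ± 4.55 in MCD-LPS, with the LPS groups overlapping, and Zfp36l1 was highest in MCD (97.1 ± 0.69), alike in ctl and LPS (65.3 ± 3.999 and 62.3 ± 0.70, overlapping) and lowest in MCD-LPS (52.8 ± 3.796). Rc3h1 and Cyld varied least, with all 8 libraries between 105 and 142 CPM and between 69.5 and 81.8 CPM.

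Levels of different genes were compared per kilobase of annotated exons (RPKM, with the union of GENCODE M21 exons, which may not be the lengths the authors counted over). In ctl, Zfp36l2 was the highest of the 10 at 65.7 ± 0.63 RPKM (SD, n = 2) and Tnfaip3 the lowest at 3.48 ± 0.33. In the other groups Zfp36 was the highest, at 161 ± 12.3 in MCD, 164 ± 90.7 in LPS and 75.5 ± 15.1 in MCD-LPS, and Cyld the lowest, at 5.53 to 6.39. These orders depend on the lengths used. The union was 3470 bases for Zfp36, which is its whole annotated span, and 10916 for Tnip3. In MCD-LPS the CPM of Tnip3 was above that of Zfp36 (338 ± 10.7 against 262 ± 52.5).

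Within the TTP family, at these exon lengths, Zfp36 made up 21.0% and 19.8% of the summed RPKM of the 3 genes in the ctl libraries. The share was 58.5% and 60.4% in MCD, 64.8% and 81.5% in LPS, and 61.7% and 56.5% in MCD-LPS. Zfp36 was therefore the main transcript of the family in each of the 6 treated libraries. Within the Regnase pair Zc3h12a held 53.6% and 54.8% in ctl and 67.9% to 78.3% in the 6 treated libraries.

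Ratios formed within a library do not depend on its scaling. Tnfaip3 over Zfp36, as a ratio of normalized counts, was 0.328 and 0.318 in ctl, 0.269 and 0.268 in MCD, 0.292 and 0.310 in LPS, and 0.395 and 0.339 in MCD-LPS. The LPS replicates, which differed more than 2-fold in each gene, had nearly the same ratio. Tnf over Zfp36 behaved likewise, at 2.05 and 2.06 in LPS, 0.912 and 0.981 in ctl, 1.26 and 1.32 in MCD, and 2.37 and 2.47 in MCD-LPS. Tnf, the classic TTP target, was set beside Zfp36 after the values had been seen, and with 2 libraries a group the order ctl, MCD, LPS, MCD-LPS is a description. Tnfaip3 over Tnip1 was at 0.645 and 1.51 in LPS, as uneven as Tnfaip3 itself.

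**Figure D4:**
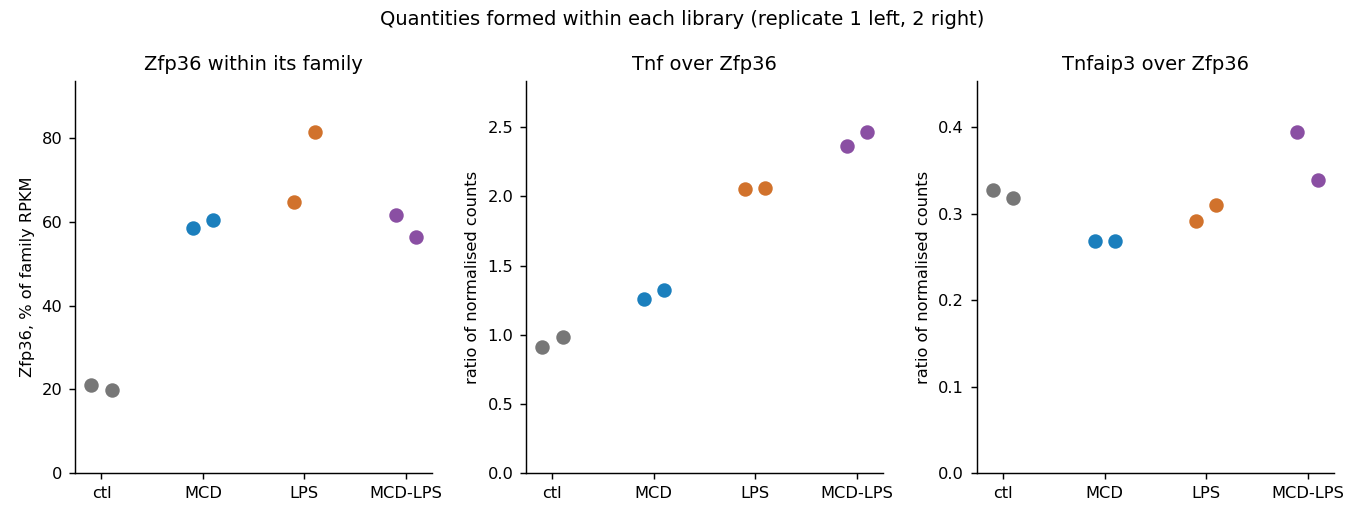
Share of Zfp36 in the summed RPKM of Zfp36, Zfp36l1 and Zfp36l2 (left, percent), and the ratios of normalized counts of Tnf over Zfp36 (middle) and Tnfaip3 over Zfp36 (right), in each library of the 4 groups (x axis; replicate 1 left, replicate 2 right; y axes from 0). The Zfp36 share lies near 20% in ctl and between 56.5% and 81.5% elsewhere, and both LPS libraries have a Tnf ratio of 2.05 to 2.06.

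The profiles over the 8 libraries were compared by the root mean square difference of log2(CPM + 1), centered on each gene, among 11544 other genes. The gene nearest to Zfp36 was Tnfaip3 (0.17), then Ier3 (0.24), an early-response gene, and Egr1 (0.30), an early-response transcription factor. Nearest to Tnfaip3 were Zfp36, Ier3 (0.27) and Egr2 (0.33). Zc3h12a was instead nearest to Pde4b (0.14), a cAMP phosphodiesterase, Gpr84 (0.16), a receptor for medium-chain fatty acids, and Errfi1 (0.19), an inhibitor of EGF receptor signaling, and its nearest gene among the 10 was Tnip3, at a distance of 0.49. The 8 libraries share groups, and the measure carries no test.

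The machinery that these regulators call on was set beside all genes, of which 1.11% passed at rest by limma. A list of this size would hold few calls at that share, so a low count does not set it apart. Of 27 genes for deadenylation and decapping (28 were listed), 1 was higher with MCD by limma and none lower (1 and 0 by edgeR and by DESeq2). At an unadjusted p under 0.05, 3 were higher and 0 lower, where 10.7% of all genes passed in either direction. The median log2 fold change was 0.026. The gene called by limma was Btg2, an antiproliferative protein that binds the deadenylase. It had 2378 and 2114 normalized counts in ctl and 8175 and 8843 in MCD (log2 1.92, SE 0.28, limma adjusted p = 0.0114). Pabpc1, the cytoplasmic poly(A)-binding protein, did not pass, with a log2 value of 0.01, nor did Btg1, at 0.17. Under LPS, 6 of the 27 were higher and 5 lower with MCD, where 12.9% of all genes were higher and 13% lower. Btg2 was lower (log2 -1.13, SE 0.28, limma adjusted p = 0.0170), as were the decapping enzyme Dcp2 (-0.26) and the deadenylase subunit Cnot6l (-0.24), while the decapping helicase Ddx6 was higher (0.30). Btg2 also had uneven LPS libraries, at 5671 and 12281.

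Of 9 other proteins that bind AU-rich or related elements, none passed at rest by limma, edgeR or DESeq2, nor at an unadjusted p under 0.05. Over all genes 1.11% passed at rest by limma and 10.7% at an unadjusted p under 0.05, which leaves few calls for so short a list. Under LPS 3 passed by limma, against 25.9% of all genes: Hnrnpd, which encodes AUF1, was higher (log2 0.32), as was Celf1 (0.22), and Tia1 was lower (-0.16). Ybx1 and Pum2 did not pass in either comparison. Among 4 tested paralogues of the 10 genes none passed by any of these tools in either comparison, and 0 had an unadjusted p under 0.05. With 4 genes this says little beside the shares over all genes. Rc3h2, which encodes Roquin-2, had log2 values of 0.10 at rest and 0.20 under LPS.

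Of 19 partners of A20, linear ubiquitin genes and deubiquitinases, none passed at rest by limma, with a median of 0.022. Over all genes 1.11% passed at rest, which leaves few calls for a list of this size. At an unadjusted p under 0.05, 2 were higher, near the 10.7% of all genes that passed in either direction. edgeR and DESeq2 each called 1 higher, Traf3. Under LPS 5 were higher with MCD and 3 lower (12.9% and 13% of all genes). Malt1, the paracaspase that cleaves A20 and Regnase-1, had 3057 and 3613 normalized counts in LPS and 5822 and 5812 in MCD-LPS (log2 0.81, SE 0.07, limma adjusted p = 0.000200), and its MCD effect differed between rest and LPS by 0.82 (limma adjusted p = 0.00138). Traf2, an adaptor of the TNF receptor, was higher (0.29), and Rnf31, the catalytic subunit of the linear ubiquitin ligase, and the deubiquitinase Usp21 were lower (-0.33 and -0.29).

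Many transcripts known as targets of TTP or Regnase-1 were higher with MCD at rest. The list was written with earlier results of these data known, so its share beside that of all genes is a description. Of 16 tested, 10 rose by limma and none fell (14 and 0 at an unadjusted p under 0.05, 11 and 0 by edgeR, 13 and 0 by DESeq2), with a median log2 fold change of 1.81. Over all genes, 1.08% were higher by limma and 10.7% had an unadjusted p under 0.05 in either direction. Il1b was higher by 4.002 on the log2 scale, the chemokine gene Cxcl2 by 3.96, Tnf by 3.30 and Nfkbiz, which encodes the Regnase-1 target IκBζ, by 3.26. Rel and Ccl2 did not pass, at 0.37 and 0.76. Il1b was low, at 13.4 and 14.5 normalized counts in ctl and 200.5 and 284 in MCD.

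Under LPS, 3 of 16 targets were higher with MCD and 2 lower by limma, with a median of -0.19. That share is near the 25.9% of all genes that passed by limma. By edgeR 3 were higher and 6 lower, beside 1524 and 1548 of all 11976 genes, a larger share than the background. By DESeq2 3 were higher and 3 lower, beside 1359 and 1256, so the reading depends on the tool. The chemokine gene Ccl2 was higher (1.25), as was the NF-κB subunit gene Rel (0.83), and Ier3 and Dusp1, a MAP kinase phosphatase, were lower (-1.16 and -1.15). Tnf itself did not pass, at -0.76 (limma adjusted p = 0.0856), with 28604 and 65913 normalized counts in LPS and 29042 and 22506 in MCD-LPS. The MCD effect was lower under LPS than at rest in 11 of 15 targets and higher in 1, Rel (9.99% and 7.12% of all genes).

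The list called NF-κB feedback here holds genes of IκB proteins and NF-κB subunits, and also Socs3 and Dusp2, which act on other pathways. It gave a mixed picture. At rest 4 of 9 were higher with MCD by limma and none lower (8 and 0 at an unadjusted p under 0.05, 4 and 0 by edgeR, 7 and 0 by DESeq2): Dusp2, a MAP kinase phosphatase (log2 2.62), Nfkbia, which encodes IκBα (1.59), Socs3, a suppressor of cytokine signaling (1.57), and Bcl3, an atypical IκB protein (0.57). Under LPS Relb (0.56), Nfkb2 (0.39) and Nfkb1 (0.38), genes of NF-κB subunits, were higher and Socs3 was lower (-0.52), while Nfkbia did not pass (-0.28). These 4 of 9 compare with 25.9% of all genes under LPS, and the 4 at rest with 1.08% of all genes higher. The 8 at an unadjusted p under 0.05 at rest compare with 10.7% of all genes in either direction. This list too was written with earlier results of these data known, so these shares are a description.

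**Figure D5:**
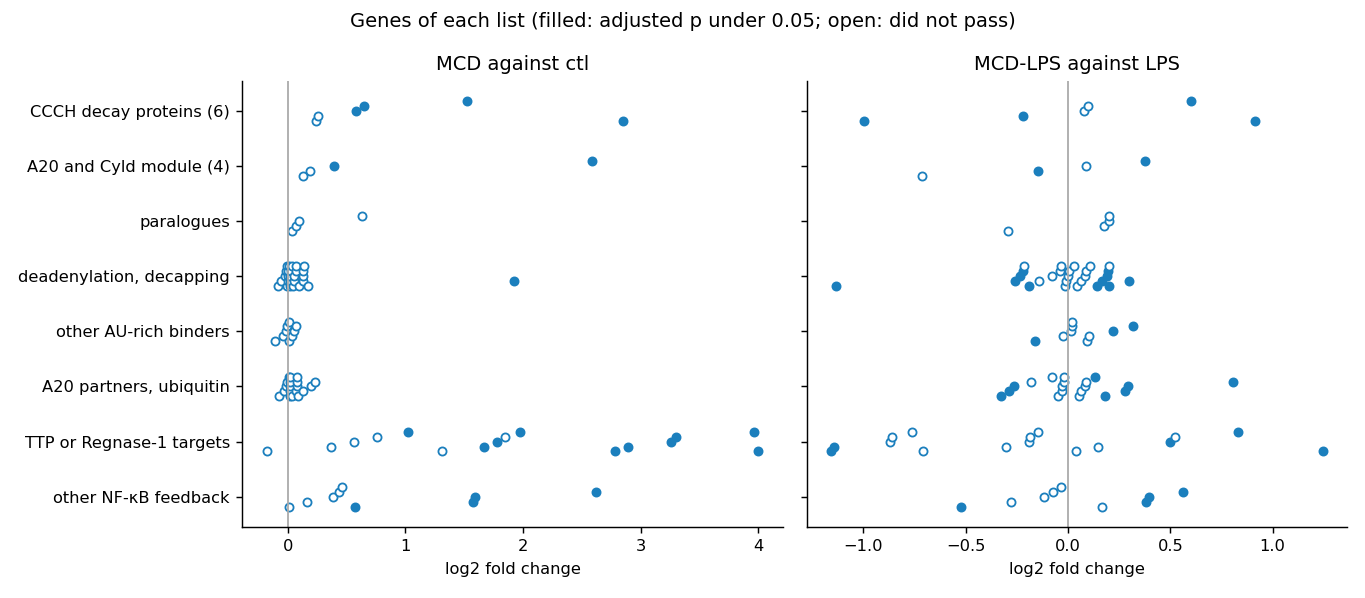
Log2 fold change (x axis, each panel on its own scale) of the genes in each list (y axis; vertical shifts within a list only separate points), for MCD against ctl (left) and MCD-LPS against LPS (right); filled points passed a limma adjusted p of 0.05. At rest the points past 1 are Zfp36, Zc3h12a and Tnfaip3, Btg2, and genes of the target and NF-κB feedback lists, while the A20 partners and the other AU-rich binders lie near 0.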

How the data were processed

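RNA-seq was performed on 8 libraries, 2 each of ctl, MCD, LPS and MCD-LPS, grouped by the sample labels. The authors deposited 10 tables. The values used are a signal: gene counts that the authors divided by a size factor, per table. STAR 2.5.3, HTSeq 0.9.1, DESeq2 1.18.1 and mm10 are named in the submitters' processing notes, and the methods name another quantifier. The sources leave unclear which produced the tables. The ctl and LPS libraries were taken to be those whose columns share a prefix with the MCD and MCD-LPS columns, respectively. This is an inference, since the tables also hold a separate untreated and LPS set. The authors' fold changes, standard errors, test statistics and p-values were not used, nor were 12 columns of other libraries; for these only the authors' deposited mean signal is given. Divided by the smallest step of their library, 100% of values were whole within 0.01, which recovers the reads.

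The filter kept genes that reached 10 in at least 2 libraries of a table. limma 3.58.1 (R 4.3.3, trend) was run on log2(value + 1), so fold changes of low genes are understated. All 8 libraries shared 1 spread, contrasts stayed within a table, and two-sided p-values were Benjamini-Hochberg adjusted over all genes. Scripts were tested on simulated data. Alternatives were pseudocounts of 0.5 and 10, no filter, a replicate block, leaving out each library, only the 4 libraries compared, and edgeR 4.0.16 and DESeq2 1.42.0 on recovered reads. CPM are scaled to the sum over genes. The floor of 3 counts covers counting error only. The genes and lists were chosen with earlier results of these data known. All 10 genes are named; from each list, per comparison, up to 4 that passed with the largest change and up to 2 of the highest mean that did not.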

Additional observations from a re-analysis of the deposited data

Results flagged for a closer look

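The MCD effect differed between rest and LPS by a test of the difference itself for 5 genes: the effect under LPS minus that at rest, on the log2 scale, was -3.85 for Zfp36, -0.80 for Zfp36l1, -0.92 for Zc3h12a, -3.30 for Tnfaip3 and -0.27 for Cyld (limma adjusted p 0.000617 to 0.0214). Zfp36 and Zfp36l1 were higher with MCD at rest and lower with MCD under LPS, each past the threshold. Tnfaip3 was higher at rest and did not pass under LPS, Zc3h12a was higher in both, and Cyld was lower under LPS and did not pass at rest. LPS, the time since MCD and the column prefix changed together, so which of them goes with these differences cannot be told apart. Groups of 2 are too small for a test of single outlying libraries.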

How the results depend on the processing

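The alternatives kept the direction of each log2 fold change of the 10 genes except that of Rc3h1 under LPS, which did not pass and was -0.027 without MCD-LPS replicate 1 and 0.18 without MCD-LPS replicate 2. Of the genes that passed, Zfp36l1 and Zc3h12a at rest, Zc3h12c and Tnip1 under LPS, and Zfp36, Zfp36l1 and Tnfaip3 for the difference kept their call in all settings run. With only the 4 libraries compared, 450 genes were higher and 115 lower for MCD against ctl (127 and 4 with all 8), and for MCD-LPS against LPS 819 were higher and 972 lower (1548 and 1551), with 2 of the 10 genes higher and 0 lower (3 and 3). For MCD against ctl, DESeq2 gave 199 higher and 15 lower and no filter gave 84 and 1. Replicate numbers were not taken as pairs, since replicate differences correlated by only 0.0415 and 0.0340 between the groups of a table; with the replicate block MCD against ctl gave 95 higher and 1 lower, Zc3h12c (adjusted p = 0.0557) and Tnip3 (0.0540) at rest and Zfp36 under LPS (0.0535) lost their call, and Zfp36l2 at rest gained one (0.0419). The general NF-κB consensus, chosen after seeing the data, was in 4 promoters against 1 for the strict spelling. Leaving out 1 library gave 27 to 289 genes higher and 0 to 31 lower for MCD against ctl, with 2 to 7 of the 10 higher; 887 to 1796 and 924 to 1607 for MCD-LPS against LPS, with 2 to 4 of the 10 higher and 0 to 3 lower; and 254 to 1306 and 579 to 1384 for the difference, with 0 to 1 of the 10 higher and 3 to 6 lower. A lone sample was then assumed to vary like the other groups. TMM scaling moved 6 of 40 mean levels by over 1 SD.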

Other observations

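The tables also hold libraries outside the 8 samples, for which only the authors' mean over 4 libraries is given, mixing treated and untreated cells or 2 treatments. For Tnfaip3 the authors' mean was 40864 normalized counts in the separate untreated and LPS-treated RAW set, 11733 in RAW cells given statin, with LPS or not, and 46919 in LPS-treated marrow macrophages without and with acetylated LDL. For Zfp36 these means were 28439, 28883 and 26718, a narrower range. The tables were normalized separately, and no test was made across them.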
